A study of Sus scrofa with 6 samples.

Results

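The genes described here encode the chains of collagens I, III and V, the fibril-forming collagens of the cardiac interstitium. The members are COL1A1, COL1A2, COL3A1, COL5A1, COL5A2 and COL5A3, taken by gene symbol, which makes 6 of the 13288 genes listed. All 6 passed the filter on low values, and 11029 genes were tested in all. RNA was sequenced from the ventricular tissue of Tibetan minipigs 12 weeks after surgery. The sham group held 3 male minipigs that underwent thoracotomy without constriction of the aorta. The DAC group held 3 male minipigs in which sutures narrowed the descending aorta (descending aortic constriction), a model of chronic pressure overload. No allele is named for either group, and the drugs named are anaesthetics and, from surgery on, penicillin. The model was made in a single breed. The sources used here give neither the age of the animals nor which ventricle was sequenced. Each library is 1 minipig, named sham replicates 1 to 3 and DAC replicates 4 to 6. Levels are in FPKM, fragment numbers corrected for transcript length and for library size, so that levels of different genes can be compared per length. Read numbers are not part of the table, so the error given for each value is the spread between minipigs.

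Fibrillar collagens are secreted as procollagens in which 3 chains wind into a triple helix, and the trimmed molecules then assemble into fibrils. Type I collagen, a heteropolymer of the COL1A1 and COL1A2 chains, carries most of the tensile load of the heart. Type III collagen, a homotrimer of the COL3A1 chain, forms thinner and more compliant fibrils together with type I. Type V collagen is a minor component that takes part in the nucleation of fibrils and limits their diameter. It is built mainly from the COL5A1 and COL5A2 chains, while the COL5A3 chain enters a rarer form. In the heart these transcripts are made mainly by fibroblasts, and in bulk tissue a change in the number of such cells and a change in the RNA made by each cell cannot be told apart.

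In the DAC myocardium, transcripts of both type I chains, the type III chain and COL5A2 were called higher at an unadjusted limma P under 0.05. Those of COL5A1 and COL5A3 were not called. No chain reached an adjusted P under 0.05, and the call of COL5A2 depended on which samples were kept. The 6 chains together summed to 421, 378 and 424 FPKM in the sham samples and to 623, 566 and 593 FPKM in the DAC samples. Every DAC sample was above every sham sample, and the ratio of the group means was 1.46. The chains held between 0.131% and 0.150% of all FPKM in the sham samples and between 0.183% and 0.221% in the DAC samples. The mitochondrial genome took up to 25.3% of the FPKM of a sham sample, 27.2% and 27.1% of DAC replicates 4 and 6, and 32.8% of DAC replicate 5. Among the FPKM of nuclear genes, the share of the 6 chains had a mean of 0.189% in sham minipigs (SD 0.0123, n = 3) and of 0.285% in DAC minipigs (SD 0.0163, n = 3).

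**Figure D1:**
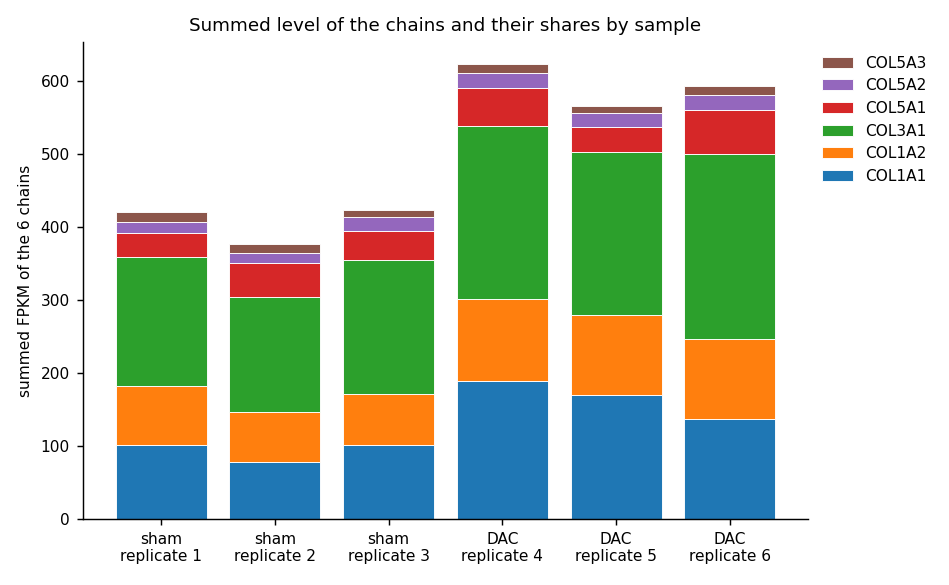
Stacked bars give the FPKM of each chain in each of the 6 minipigs, and the height of a bar is the summed FPKM of the 6 chains. The sham bars reach between 378 and 424 FPKM and the DAC bars between 566 and 623 FPKM, with COL3A1 as the largest segment in each bar.

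The order of the levels was the same in all 6 samples. COL3A1 had the highest FPKM, followed by COL1A1, COL1A2, COL5A1, COL5A2 and COL5A3. COL3A1 ranked between 101 and 190 among the 13288 listed genes, and COL5A3 between 2756 and 3956. Within the sham group the ranges of COL1A1 and COL1A2 overlapped, from 78.5 to 102 FPKM and from 68.3 to 81.3 FPKM. Within the DAC group these ranges were apart, from 137 to 189 FPKM for COL1A1 and from 109 to 113 FPKM for COL1A2. All other neighbours in the order had ranges that did not overlap within a group.

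COL1A1 (ENSSSCG00000036135, chromosome 12 from 26379090 to 26397003 on susScr11) encodes the more abundant chain of type I collagen. Its level was 102, 78.5 and 102 FPKM in sham replicates 1 to 3 and 189, 170 and 137 FPKM in DAC replicates 4 to 6. The groups did not overlap, sham replicate 2 was the lowest sample and DAC replicate 6 was the lowest of its group. Mean levels were 94.0 ± 13.4 FPKM in sham and 165 ± 26.4 FPKM in DAC minipigs (SD, n = 3 each), a ratio of 1.76. The fold change of log2(FPKM + 1) was 0.81 (standard error 0.16, 95% interval from 0.42 to 1.19), with an unadjusted P of 0.00158 and an adjusted P of 0.379 from limma. A larger log2 fold change was found in 0.589% of the genes tested.

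COL1A2 (ENSSSCG00000015326, chromosome 9 from 74173931 to 74210398) encodes the partner chain of type I collagen. The sham samples were at 81.3, 68.3 and 70.1 FPKM, and the DAC samples at 113, 109 and 109 FPKM. The DAC values lay within a narrow band above all sham values, with a coefficient of variation of 1.86% against 9.62% in the sham group. The log2 fold change was 0.59 (standard error 0.11, 95% interval from 0.34 to 0.84), the unadjusted limma P was 0.000805 and the adjusted P was 0.337. The ratio of the means was 1.51.

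COL3A1 (ENSSSCG00000016034, chromosome 15 from 93556912 to 93615815) encodes the only chain of type III collagen. Its level was 177, 158 and 183 FPKM in the sham samples and 237, 223 and 255 FPKM in the DAC samples. All DAC samples were above all sham samples, and the coefficient of variation was 7.71% in sham hearts and 6.55% in DAC hearts. The log2 fold change was 0.46 (standard error 0.11, 95% interval from 0.21 to 0.72), with an unadjusted P of 0.00349 and an adjusted P of 0.460 from limma. In the deposited table the COL3A1 locus overlaps the 3′ end of COL5A2, which lies on the opposite strand, over 3960 bases. The sources used here do not give how reads in this stretch were assigned. In the RefSeq annotation of Sscrofa11.1, COL3A1 ends at 93595678, before the start of COL5A2 at 93611856.

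**Figure D2:**
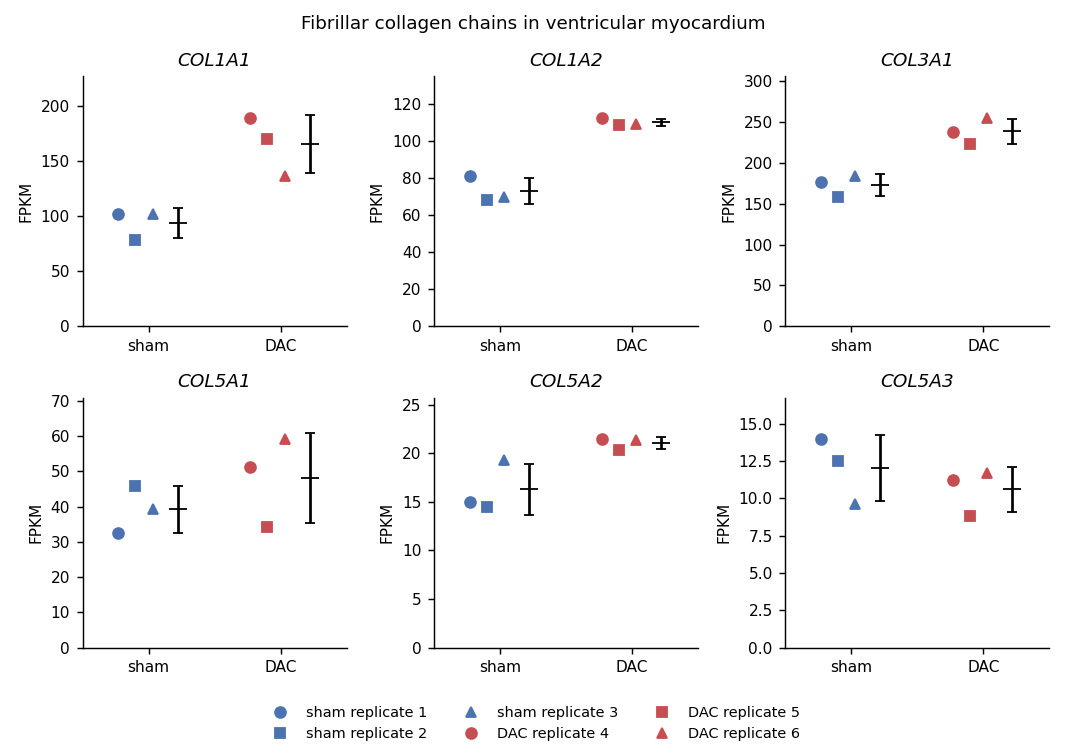
Each panel gives the FPKM of 1 chain, with a point for each minipig and, beside the points, the group mean with its SD (n = 3). The DAC points lie above all sham points for COL1A1, COL1A2, COL3A1 and COL5A2, and the groups overlap for COL5A1 and COL5A3.

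COL5A2 (ENSSSCG00000016035, chromosome 15 from 93611856 to 93981110) encodes a chain of the main type V heterotrimer. It was at 15.003, 14.5 and 19.3 FPKM in the sham samples and at 21.4, 20.3 and 21.4 FPKM in the DAC samples. The groups did not overlap, but sham replicate 3 lay only about 1 FPKM below the lowest DAC sample. The log2 fold change was 0.36 (standard error 0.13, 95% interval from 0.058 to 0.67), with an unadjusted P of 0.0259 and an adjusted P of 0.553 from limma. This call depended on which samples were kept. It held without sham replicate 3 (unadjusted limma P of 0.00515) and without DAC replicate 5 (unadjusted limma P of 0.0423). Leaving out sham replicate 1 gave an unadjusted limma P of 0.0845, and for sham replicate 2 it was 0.0874, for DAC replicate 4 it was 0.0602 and for DAC replicate 6 it was 0.0630, while the log2 fold change stayed between 0.29 and 0.49 with any 1 sample left out.

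COL5A1 (ENSSSCG00000005751, chromosome 1 from 273971971 to 274085426) encodes the chain that is present in nearly all type V molecules. Its level was 32.4, 45.9 and 39.2 FPKM in the sham samples and 51.3, 34.1 and 59.1 FPKM in the DAC samples. DAC replicates 4 and 6 were above all sham samples and DAC replicate 5 was below 2 of them, so that the groups overlapped. The log2 fold change was 0.27 (standard error 0.22), with an unadjusted limma P of 0.263, and the 95% interval from -0.25 to 0.79 holds the estimates for COL5A2 and COL3A1. Without DAC replicate 5 the log2 fold change was 0.49, with an unadjusted limma P of 0.0267. DAC replicate 5 is also the sample with the highest mitochondrial share, and rescaled without the mitochondrial genome COL5A1 had a log2 fold change of 0.31 with an unadjusted limma P of 0.190. MYL4, the atrial myosin light chain, was also high in DAC replicates 4 and 6, at 9.22 and 17.6 FPKM, against 0.780 FPKM in DAC replicate 5 and between 1.08 and 3.79 FPKM in the sham samples. This split was not particular to MYL4, and WT1 did not show it. ITGA11, a collagen receptor gene, was at 4.42, 1.09 and 5.07 FPKM in DAC replicates 4 to 6. CCN2, listed with the regulators, was at 23.0, 7.38 and 31.4 FPKM there. ITGA11 and CCN2 were picked after their values were seen. Of 8 atrial, valve and epicardial markers only MYL4 and WT1 were analysed here, with a sum between 6.79 and 14.1 FPKM in the sham samples and between 3.27 and 21.9 FPKM in the DAC samples. The part of any of these genes in the COL5A1 values was not tested.

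COL5A3 (ENSSSCG00000013667, chromosome 2 from 68827562 to 68869884) encodes the chain of the rarer type V form. The sham samples were at 13.9, 12.5 and 9.62 FPKM and the DAC samples at 11.2, 8.84 and 11.7 FPKM. The groups overlapped, with DAC replicate 5 lowest of all. Its mean, unlike that of the other chains, was lower after DAC, and the log2 fold change of -0.16 (standard error 0.17, 95% interval from -0.55 to 0.23) did not pass the test, with an unadjusted limma P of 0.357. Its share of the 6 chains was 3.31%, 3.31% and 2.27% in the sham samples and 1.80%, 1.56% and 1.98% in the DAC samples. These shares did not overlap, while the summed level of the chains, by which they are divided, was higher in the DAC samples.

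Of the 6 chains, 4 were higher in the DAC group at an unadjusted limma P under 0.05, beside 3.25% of all genes tested that were called higher, and none was called lower, beside 5.27%. The same 4 chains had groups that did not overlap with the DAC group higher, beside 6.01% of all genes tested, and no chain had groups apart in the other direction, beside 8.91%. The study had already named these 4 chains as fibrosis genes from the same libraries, so that both counts are a description. The median log2 fold change was 0.41 over the 6 chains and -0.016 over all genes tested. No chain reached an adjusted P under 0.05, and neither did any other gene: by limma with Benjamini-Hochberg adjustment 0 of 11029 genes passed, while 939 had an unadjusted P under 0.05. When the FPKM were rescaled without the mitochondrial genome, 502 genes were called higher and 408 lower, against 358 and 581 with the values as deposited. The same 4 chains were called under this rescaling.

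**Figure D3:**
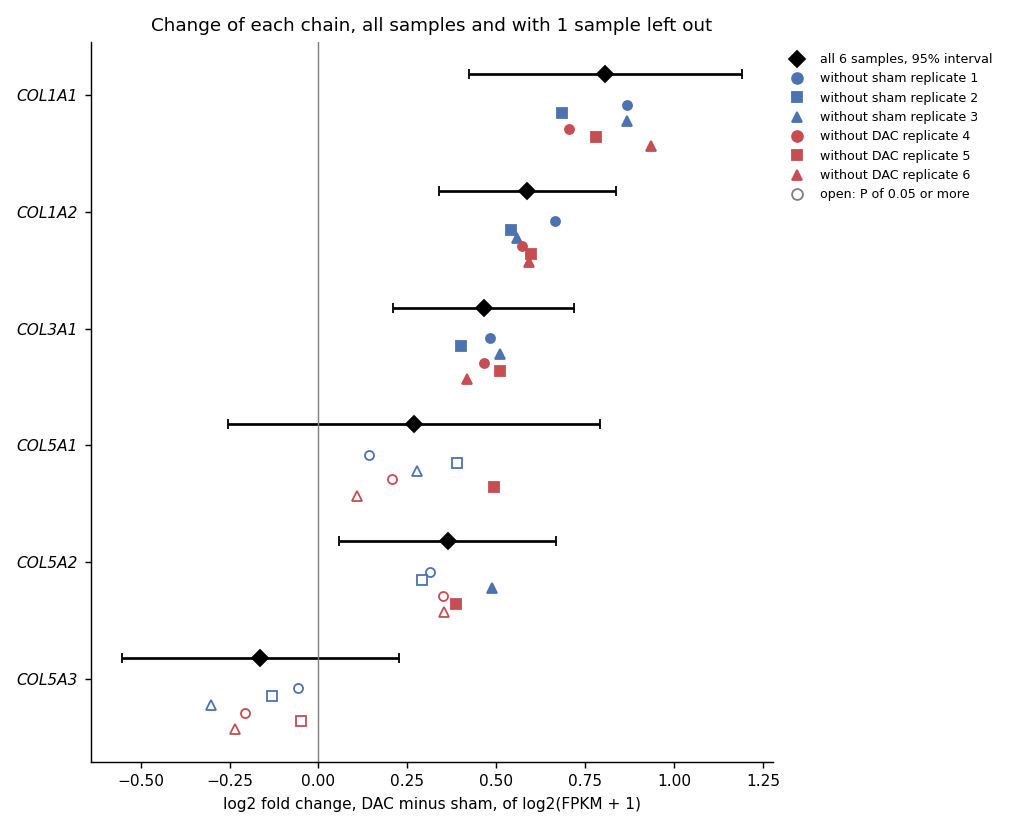
Black diamonds give the log2 fold change of each chain over all 6 samples on the scale of log2(FPKM + 1), with the 95% interval from limma, and the smaller symbols give it with 1 sample left out, open where the unadjusted P was 0.05 or more. COL1A1 stayed between 0.68 and 0.94, COL1A2 between 0.54 and 0.66 and COL3A1 between 0.40 and 0.51, all filled, while COL5A2 lost its call in 4 of the 6 refits.

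The chains were then compared with each other within each minipig, since a ratio of 2 genes in one library does not depend on the scaling of that library. For each of 6 ratios, the log2 values of the groups were compared with an exact two-sided permutation test, in which 3 minipigs against 3 cannot give a P under 0.10. COL1A1 over COL1A2 was 1.25, 1.149 and 1.45 in the sham samples and 1.68, 1.57 and 1.25 in the DAC samples. DAC replicates 4 and 5 were above all sham samples, and DAC replicate 6 lay among them. The difference in log2 ratio was 0.22 (standard error 0.16, exact permutation P = 0.2, adjusted P = 0.45 over the 6 ratios), beside a pooled SD of 0.20 between minipigs.

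COL3A1 over COL1A1, the balance of type III to type I transcripts, showed the same division of the DAC samples. The ratio was 1.74, 2.01 and 1.80 in the sham samples and 1.26, 1.31 and 1.86 in the DAC samples. DAC replicates 4 and 5 lay below all sham samples, and DAC replicate 6 lay within the sham range. The difference in log2 ratio was -0.35 (standard error 0.19, exact permutation P = 0.3, adjusted P = 0.45). Biglycan (BGN), a small proteoglycan that binds collagen, also differed between DAC replicates 4 and 5 and DAC replicate 6 and was picked after its values were seen. It was at 67.5 and 67.2 FPKM in DAC replicates 4 and 5, at 34.0 FPKM in DAC replicate 6 and between 25.6 and 31.5 FPKM in the sham samples, so that all DAC samples were above the sham samples.

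**Figure D4:**
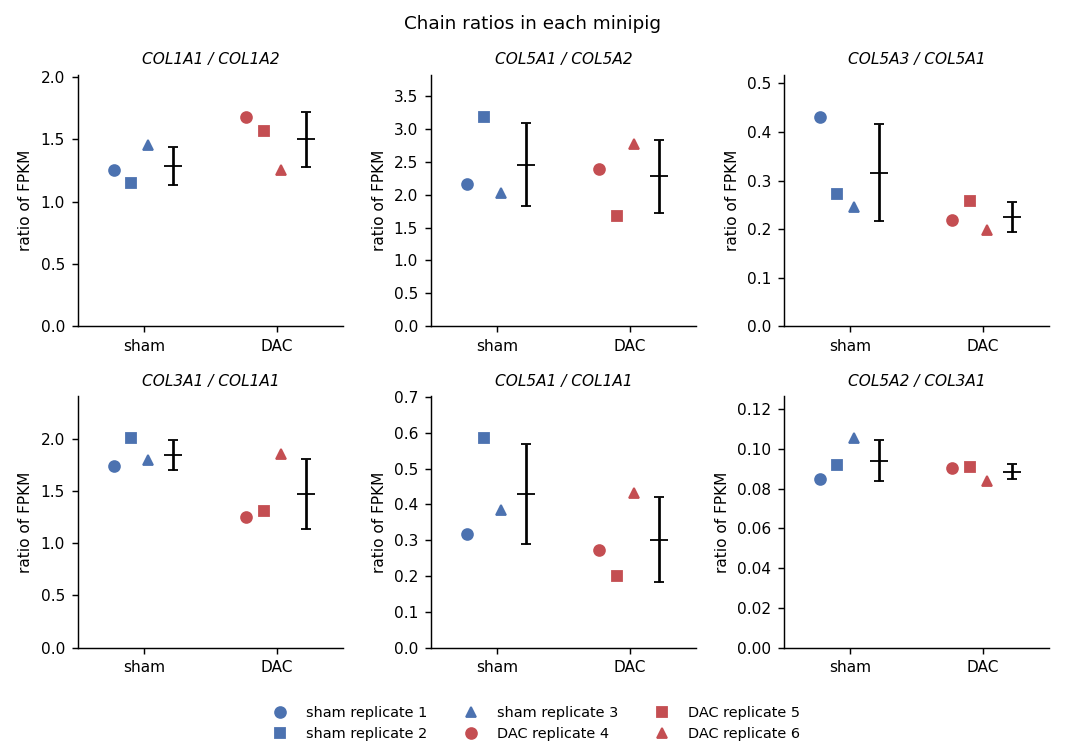
Each panel gives the ratio of the FPKM of 2 chains in each minipig, with the group mean and SD (n = 3) beside the points. In the COL1A1 over COL1A2 and COL3A1 over COL1A1 panels, DAC replicates 4 and 5 lie outside the sham range and DAC replicate 6 inside it, and the groups overlap in all 6 panels.

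Among the type V chains, COL5A1 over COL5A2 was 2.16, 3.18 and 2.03 in the sham samples and 2.39, 1.68 and 2.76 in the DAC samples. The values of the groups were interleaved, with a difference in log2 ratio of -0.11 (standard error 0.29, exact permutation P = 0.8, adjusted P = 0.8). COL5A3 over COL5A1 was 0.431, 0.272 and 0.245 in the sham samples and 0.219, 0.259 and 0.198 in the DAC samples. DAC replicates 4 and 6 were below all sham samples and DAC replicate 5 was not (log2 difference -0.45, standard error 0.27, exact permutation P = 0.2, adjusted P = 0.45).

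COL5A1 over COL1A1 compares the chain of the fibril nucleator with that of the bulk collagen. It was between 0.318 and 0.585 in the sham samples and between 0.200 and 0.432 in the DAC samples, with a log2 difference of -0.54 (standard error 0.41, exact permutation P = 0.3, adjusted P = 0.45). COL5A2 over COL3A1 compares neighbouring genes of chromosome 15, whose listed loci share 3960 bases. Whether reads in this stretch affect the ratio was not tested. The ratio had the smallest pooled SD of the 6 log2 ratios, 0.12. It was between 0.0849 and 0.105 in the sham samples and between 0.0840 and 0.0911 in the DAC samples. Its log2 difference was -0.082 (standard error 0.098, exact permutation P = 0.4, adjusted P = 0.48). The groups overlapped in each of the 6 ratios, so that a change in the proportions of the chains was not resolved with these minipigs.

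Each chain was also set against other transcripts of fibroblasts in the same minipig. The reference was the summed FPKM of 11 fibroblast markers that are not collagens (PDGFRA, TCF21, DCN, LUM, DPT, GSN, MFAP5, PDGFRL, FBLN1, PI16 and THY1). This sum was between 469 and 540 FPKM in the sham samples and between 480 and 667 FPKM in the DAC samples, and the groups overlapped. Its largest terms were GSN and DCN, with sham means of 177 and 150 FPKM and DAC means of 191 and 156 FPKM. The next, DPT, had means of 54.3 FPKM in the sham group and 58.2 FPKM in the DAC group, so that the sum mostly follows GSN and DCN. COL3A1 over this sum was 0.356, 0.336 and 0.340 in the sham samples and 0.464, 0.465 and 0.382 in the DAC samples. For COL1A1 it was 0.2047, 0.167 and 0.189 in the sham samples and 0.369, 0.355 and 0.2053 in the DAC samples, with DAC replicate 6 just above the highest sham sample.

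The log2 difference of this ratio was 0.69 (standard error 0.29) for COL1A1, 0.47 (standard error 0.18) for COL1A2 and 0.34 (standard error 0.098) for COL3A1. For these 3 chains the groups did not overlap and the exact permutation P was 0.1, the smallest possible, with an adjusted P of 0.2 over the 6 chains. Only COL3A1 kept an exact permutation P of 0.1 under each other setting of the ratio with all 6 minipigs. For COL1A1 the exact permutation P was 0.3 against DCN alone and 0.2 against the mean of the log2 markers, and for COL1A2 it was 0.2 against either of these and with a pseudocount of 1. The log2 difference was 0.26 (standard error 0.15) for COL5A2, 0.15 (standard error 0.23) for COL5A1 and -0.30 (standard error 0.23) for COL5A3. For these chains the groups overlapped, with an exact permutation P between 0.2 and 0.6. Decorin (DCN), a proteoglycan of collagen fibrils with the widest range in FPKM of these markers in the DAC group, was at 99.8, 150 and 218 FPKM in DAC replicates 4 to 6.

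Of 11 tested fibroblast markers, 1 was called higher in the DAC group and none lower, beside 3.25% and 5.27% of all genes tested. Their median log2 fold change was 0.099. The one that rose was lumican (LUM), a proteoglycan of collagen fibrils, from 16.6, 19.5 and 25.5 FPKM in the sham samples to 29.3, 38.1 and 36.9 FPKM in the DAC samples (log2 fold change 0.74, unadjusted limma P of 0.00405). PDGFRA, a receptor that marks fibroblasts, was between 8.74 and 11.08 FPKM in the sham samples and between 10.5 and 12.6 FPKM in the DAC samples. Among 6 markers of smooth muscle cells and myofibroblasts, CNN1 was called higher and SMTN lower, and ACTA2 was between 21.0 and 30.4 FPKM in the sham samples and between 25.4 and 36.5 FPKM in the DAC samples. No marker of this list was called lower after median scaling, quantile normalization or rescaling without the mitochondrial genome, or without any 1 sample other than DAC replicate 4. None was called higher with unmoderated variance or without sham replicate 1, sham replicate 2 or DAC replicate 5. The summed level of these 6 markers was between 184 and 220 FPKM in the sham samples and between 201 and 225 FPKM in the DAC samples.

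The summed levels of the markers of other cells overlapped between the groups, and none of these markers was at 0 in any sample. The summed FPKM of 7 endothelial markers was between 110 and 156 in the sham samples and between 108 and 154 in the DAC samples. Here KDR and EMCN were called higher and VWF was called lower, while none was called higher with unmoderated variance or without sham replicate 1, sham replicate 3 or DAC replicate 6, and 1 was without DAC replicate 4. For 5 leukocyte markers the sum was between 42.4 and 45.2 FPKM in the sham samples and between 34.3 and 46.9 FPKM in the DAC samples. Here CD163, a macrophage scavenger receptor, was called lower, while 2 markers had a higher and 3 a lower mean in the DAC group. CD68 had a log2 fold change of 0.50 (unadjusted limma P of 0.0918). Without DAC replicate 4, 2 leukocyte markers were called higher and 1 lower. As a check of the labelled tissue, 9 cardiomyocyte markers summed to between 14687 and 15375 FPKM in the sham samples and between 13851 and 16879 FPKM in the DAC samples, among them the ventricular light chain MYL2. In that list RYR2, the calcium release channel, was called lower, but no cardiomyocyte marker was after quantile normalization, after rescaling without the mitochondrial genome, with unmoderated variance, or without sham replicate 1, sham replicate 3 or DAC replicate 5.

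The other fibrillar collagens were at low levels. COL27A1 was between 2.74 and 3.33 FPKM in the sham samples and at 5.93, 3.10 and 3.40 FPKM in the DAC samples, with overlapping groups. COL11A1 was at most 0.703 FPKM in any sample and did not pass the filter. COL2A1, COL11A2 and COL24A1 were not analysed here.

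The enzymes and chaperones that modify and fold procollagen in the endoplasmic reticulum were split in direction between the groups. Of 16 tested genes, 2 were called higher in the DAC group and none lower, beside 3.25% and 5.27% of all genes tested. A higher mean was found in 8 and a lower mean in 8, and the median log2 fold change was -0.0018. PLOD2, the lysyl hydroxylase of the collagen telopeptides, was at 1.997, 2.73 and 2.22 FPKM in the sham samples and at 4.18, 3.23 and 3.93 FPKM in the DAC samples (log2 fold change 0.53, unadjusted limma P of 0.00547). FKBP10, a prolyl isomerase that acts with this hydroxylase, was at 3.17, 2.25 and 3.50 FPKM in the sham samples and at 4.199, 5.77 and 5.01 FPKM in the DAC samples (log2 fold change 0.60, unadjusted limma P of 0.00765). The groups did not overlap for either gene.

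In the same list P4HB, a subunit of the prolyl hydroxylase, was between 65.5 and 71.6 FPKM in the sham samples and between 59.0 and 61.6 FPKM in the DAC samples, with an unadjusted limma P of 0.0686. PLOD3, another lysyl hydroxylase, was between 11.5 and 12.8 FPKM in the sham samples and between 9.22 and 10.9 FPKM in the DAC samples, with an unadjusted limma P of 0.0855. Of 6 tested genes of procollagen export and propeptide removal, none was called in either direction. ADAMTS2, which removes the aminoterminal propeptide, had a log2 fold change of 0.32 and PCOLCE, an enhancer of the carboxyterminal proteinase, 0.36, each with an unadjusted limma P above 0.05. Of 5 tested cross-linking enzymes none was called either, and LOXL1 had the smallest unadjusted limma P, 0.0572, with a log2 fold change of 0.49. In this list 1 gene was called higher after median scaling, quantile normalization or rescaling without the mitochondrial genome, and without sham replicate 3.

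The partners that sit on collagen fibrils held more calls than the other lists of genes around the chains. Of 15 tested genes, 6 were higher in the DAC group, beside 3.25% of all genes tested, and none was lower, beside 5.27%. The median log2 fold change was 0.31, with a higher mean in 14 of them. With unmoderated variance 4 were called higher, after quantile normalization 7, and at a minimum of 5 FPKM 4 of 12. With 1 sample left out, the number called higher was between 5 and 8. Fibronectin (FN1), the scaffold on which collagen fibrils are laid down, was at 26.8, 21.5 and 16.2 FPKM in the sham samples and at 33.1, 45.2 and 51.0 FPKM in the DAC samples (log2 fold change 0.98, unadjusted limma P of 0.00290). The other genes called were OGN, POSTN and LUM, and also BGN and FMOD, which lie outside the naming rule and are named here after their values were seen. DCN had a log2 fold change of -0.012. The 3 chains of collagen VI had log2 fold changes between 0.11 and 0.27 and did not pass the test. Several of these genes were known from earlier results of these data, so that their count is a description.

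**Figure D5:**
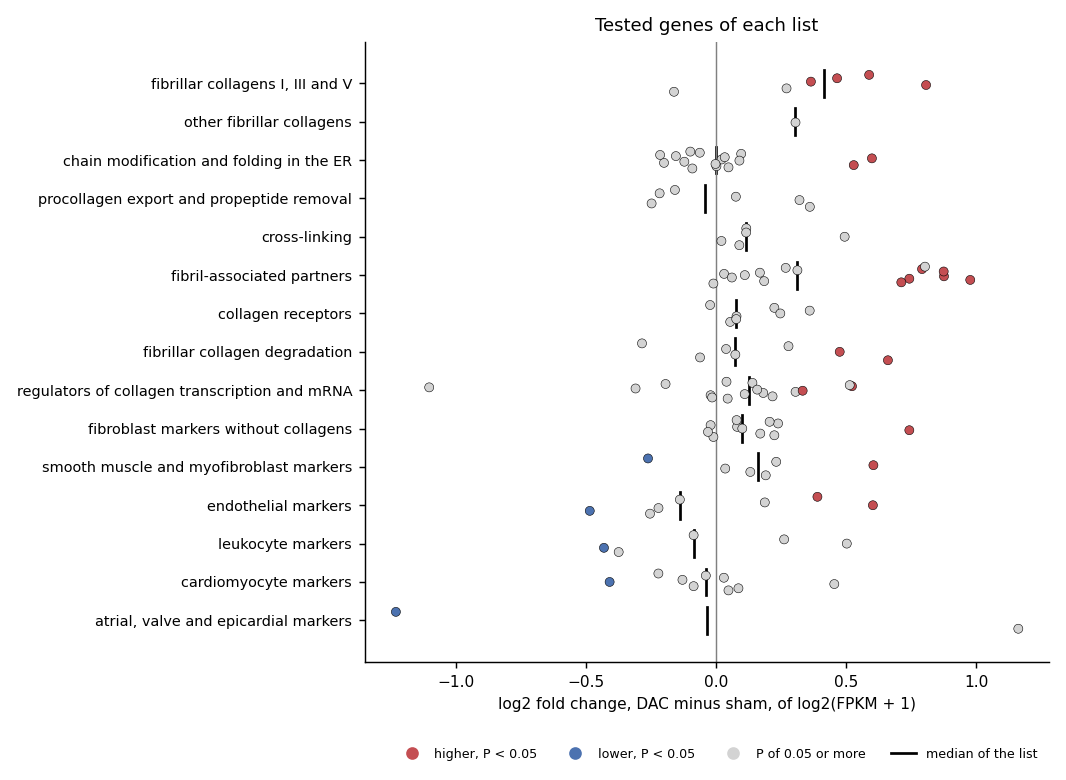
Each point is the log2 fold change of 1 tested gene on the scale of log2(FPKM + 1), by list, coloured where the unadjusted limma P was under 0.05, and the bar is the median of the list. The medians are 0.41 for the 6 chains, 0.31 for the fibril-associated partners and -0.0018 for modification and folding, and a gene in more than one list is drawn in each.

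Of 7 tested collagen receptors, none was called, while 2 were called higher without DAC replicate 5 and 1 without DAC replicate 4. After median scaling, quantile normalization or rescaling without the mitochondrial genome, or with sample weights, 1 receptor was called higher. DDR2, a receptor tyrosine kinase that binds fibrillar collagen, was between 7.82 and 8.85 FPKM in the sham samples and between 9.004 and 13.8 FPKM in the DAC samples, with an unadjusted limma P of 0.0563. Among 7 tested genes for the breakdown of fibrillar collagen, 2 were called higher and none lower, beside 3.25% and 5.27% of all genes tested. After median scaling, quantile normalization or rescaling without the mitochondrial genome 3 were called higher, and at a minimum of 5 FPKM 1 of 6. TIMP1, an inhibitor of matrix metalloproteinases, was at 9.31, 8.58 and 7.22 FPKM in the sham samples and at 11.8, 16.3 and 13.4 FPKM in the DAC samples (log2 fold change 0.66, unadjusted limma P of 0.00291). MMP16, a membrane-bound metalloproteinase, had a log2 fold change of 0.47 (unadjusted limma P of 0.00967). MMP2, the gelatinase that degrades denatured collagen, was between 23.9 and 28.3 FPKM in the sham samples and between 28.4 and 36.4 FPKM in the DAC samples, with an unadjusted limma P of 0.0682.

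Among 16 tested regulators of collagen transcription and mRNA, 2 were called higher and none lower, beside 3.25% and 5.27% of all genes tested. Their median log2 fold change was 0.12. TGFBR3, a co-receptor for transforming growth factor beta, was between 7.07 and 7.71 FPKM in the sham samples and between 8.59 and 10.5 FPKM in the DAC samples (log2 fold change 0.33, unadjusted limma P of 0.0188). The ligand TGFB3 was at 2.49, 2.64 and 1.92 FPKM in the sham samples and at 4.73, 2.77 and 4.08 FPKM in the DAC samples (log2 fold change 0.52, unadjusted limma P of 0.0227). Without DAC replicate 5, 7 of the 16 regulators were called higher, without DAC replicate 6 or sham replicate 1 or with unmoderated variance it was 1, and without DAC replicate 4 or sham replicate 3 it was 0.

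Likeness to the chains was measured as the root mean square difference, over the 6 samples, between the centred log2(FPKM + 1) of a gene and the mean centred profile of the 6 chains. Among 9960 tested genes with a symbol, the median of this difference was 0.27. COL3A1 lay closest to the mean profile of the chains, at 0.069, followed by COL5A2 at 0.12 and COL1A2 at 0.13. COL5A1 was at 0.25, COL1A1 at 0.28 and COL5A3 at 0.32, so that these 3 departed most from the mean profile.

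The 10 other genes closest to the profile were DOCK11, SHISA4, SPATS2, PTX4, LFNG, NOTCH2, PLCL1, MAP3K14, POLH and ASF1A, with differences between 0.038 and 0.073. None of them belongs to the lists above. DOCK11, an activator of the small GTPase CDC42, was at 1.42, 1.34 and 1.37 FPKM in the sham samples and at 2.11, 1.88 and 2.13 FPKM in the DAC samples. The receptor NOTCH2 was at 9.10, 8.38 and 8.55 FPKM in the sham samples and at 11.02, 10.4 and 11.2 FPKM in the DAC samples. LFNG, a glycosyltransferase that modifies Notch receptors, was between 5.01 and 5.12 FPKM in the sham samples and between 5.54 and 7.398 FPKM in the DAC samples. In each of the 10 genes, as in the mean profile, DAC replicates 4 to 6 were all above the sham samples. That order follows largely from choosing these genes by their likeness to the profile, and is no separate result. Their levels were between 0.897 and 11.2 FPKM, where the pseudocount compresses a change more than it does for the chains of types I and III.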

How the data were processed

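Per the labels, reads were aligned with HISAT2 to susScr11, and the authors deposited 1 table of FPKM with a column for each of the 6 minipigs. The program that made the values and its handling of shared reads are not given in the sources used here. Each listed gene had at least 0.500 FPKM in its highest sample. In 8770 of 13288 genes a value had more than 6 decimals, among them all chains but COL5A1 and COL5A3, and the sources used here give no reason. Column sums were between 281377 and 308771 FPKM.

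With R 4.3.3 and limma 3.58.1, log2(FPKM + 1) was compared for genes that reached 1 FPKM in 3 or more samples, between DAC and sham, by a linear model with moderated, trended variance. Calls used an unadjusted P under 0.05, as in the study, and adjusted P covers all genes tested (Benjamini-Hochberg). Fold changes on this scale understate the change of low genes. Ratios used exact permutation tests (scipy 1.17.1). The limma fit, but not the ratio tests, was tested on simulated data.

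The members and gene lists were chosen with earlier results of these data known. Named are the chains, up to 4 genes of a list with the smallest P, fibrosis genes named by the study, and the 10 genes of nearest profile, unless stated otherwise. Genes of the lists without a row in the table were not analysed here. Alternatives were a minimum of 5 FPKM, no minimum, scaling to the median, quantile normalization, rescaling without the mitochondrial genome, a pseudocount of 0.1, unmoderated variance, sample weights, each sample left out, and other pseudocounts and references for ratios.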

Additional observations from a re-analysis of the deposited data

How the results depend on the processing

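Over the 8 settings other than leaving out a sample, the 4 calls and the direction of all 6 fold changes were kept. With 1 sample left out, the log2 fold change was between 0.68 and 0.94 for COL1A1, 0.54 and 0.66 for COL1A2, 0.40 and 0.51 for COL3A1, 0.29 and 0.49 for COL5A2, 0.11 and 0.49 for COL5A1 (called without DAC replicate 5), and -0.30 and -0.050 for COL5A3. The number of chains called higher was then between 3 and 5. With 1 sample left out, the log2 difference of COL5A1 over COL5A2 was between -0.26 and 0.097 and that of COL5A2 over COL3A1 between -0.15 and 0.0027, so that these directions are not set. Against DCN alone, the log2 difference was 0.48 in place of 0.34 for COL3A1 (exact permutation P = 0.1). For COL1A1 it was 0.83 in place of 0.69 (exact permutation P = 0.3). For COL1A2 it was 0.61 in place of 0.47 (exact permutation P = 0.2). Only the reference changes here, so that each chain shifts by the same amount. Why DCN and the sum of the markers differ was not tested. Median scaling kept 9 of the 10 genes of nearest profile. A minimum of 5 FPKM left 579 genes called of 6271, against 939. The groups were separate minipigs, assigned at random per the study, so that no paired analysis applied. The study then left out 1 minipig of each group for unstable heart rates. How the sequenced minipigs were chosen from the rest is not given. The depth is unknown, no P for a ratio could fall under 0.10, and all calls rest on unadjusted P.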

Other observations

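LARP6, which binds the stem-loop of collagen mRNAs, was singled out after its values were seen. It is listed at 0 in DAC replicate 5 and at 9.93, 10.1, 10.03, 10.6 and 10.7 FPKM in the other samples. Whether this 0 reflects the transcript level or the way the value was made was not tested. The log2 fold change of LARP6, -1.10 (unadjusted limma P of 0.253), rests on this 1 value. WT1, a transcription factor of the epicardium, was at 4.76, 10.3 and 11.4 FPKM in the sham samples and at 2.36, 2.49 and 4.30 FPKM in the DAC samples (log2 fold change -1.23, unadjusted limma P of 0.00586), and the groups did not overlap.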
